A study of Mus musculus with 6 samples.

Results

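The expression of 10 genes of tuft cells was examined in the duodenal epithelium of WT and Esrra-/- mice. The genes were chosen by symbol as known tuft cell genes, with earlier results of these data known. All 10 were found among the 22611 genes of the table. RNA-seq libraries were made from 3 biological replicates each of WT and Esrra-/- mice. The Esrra-/- mice carried a germline null allele of Esrra, which encodes the estrogen-related receptor ESRRA, so the gene was lost in every tissue and not in the intestine alone. The WT mice were their littermates, mice of both genotypes were fed a high-fat diet, and the ages of these mice are not given in the sources used here. The colony was also bred with a Villin-CreERT2 transgene, and whether these mice carried it is not given either. The comparison asks whether the expression of the tuft cell programme differed upon loss of Esrra.

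Tuft cells are rare chemosensory cells of the intestinal epithelium. They depend on the transcription factor POU2F3, detect luminal signals through proteins shared with taste cells, and release the cytokine IL-25 together with leukotrienes and prostaglandins. IL-25 acts on innate lymphoid cells, whose IL-13 in turn raises the numbers of tuft and goblet cells, a circuit known from infection with parasites.

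For 8 of the 10 genes the values of the genotypes overlapped. Of all genes tested, 8.45% had every Esrra-/- value above every WT value and 9.14% the reverse. Plcg2, a phospholipase C, and Il17rb, a receptor subunit for IL-25, were higher in Esrra-/- by 1.88-fold and 1.96-fold in mean level (n = 3 libraries each; log2 fold changes of 0.96 with standard error 0.25 and 0.90 with standard error 0.23). Both passed at an unadjusted p, and neither after adjustment over all genes. The values of Dclk1, Trpm5 and Pou2f3, the genes by which tuft cells are usually recognised, overlapped between the genotypes, and none of the 5 genes abundant enough to be tested was called lower.

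Levels are given as FPKM, the number of sequenced fragments scaled for transcript length and library size, which allows genes of different length to be compared. The limma test, which borrows information on variance from all genes, was applied to log2(FPKM + 0.1) of each gene whose mean FPKM exceeded 1. All fold changes below are Esrra-/- over WT on this scale, which shrinks changes at low expression. A call required a log2 fold change beyond 0.58 in either direction with p under 0.05 before adjustment. Of the 10596 genes tested, 143 were called higher (1.35%) and 348 lower (3.28%). Esrra itself had 49.4, 73.5 and 104 FPKM in WT and 10.4, 9.42 and 8.72 FPKM in Esrra-/-. Depth cannot be read from FPKM, so the counting error of a single value is not known. The spread between libraries is given instead, which joins that error with differences between mice. The summed FPKM of 4 Y-linked genes was between 27.3 and 46.7 in 4 libraries, but 0.0487 in WT replicate 3 and 0.222 in Esrra-/- replicate 3. The summed level of 7 villus enterocyte genes ran from 35900 to 61300 FPKM and that of 7 neuronal and mesenchymal genes from 2.16 to 5.05 FPKM, so the defining genes of the labelled epithelium were abundant in every library.

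Of the 10 members, 5 had a mean FPKM above 1 and were tested: Plcg2, Alox5ap, Trpm5, Il17rb and Dclk1. Only these could be called. The other 5, Pou2f3, Ptgs1, Gfi1b, Gnat3 and Il25, fell under this level and are given by their values and an exact permutation test. In the order of their mean over the 6 libraries, the levels were 7.52 FPKM for Plcg2, 3.19 for Alox5ap, 3.07 for Trpm5, 1.64 for Il17rb, 1.34 for Dclk1, 0.869 for Pou2f3, 0.712 for Ptgs1, 0.385 for Gfi1b, 0.180 for Gnat3 and 0.0730 for Il25. Plcg2 stood above 72.8% of all genes in the table by mean FPKM and Il25 above 35.8%. Most neighbours in this order had overlapping ranges over the libraries. The exception was the step from Ptgs1, with 0.510 FPKM or more in each library, to Gfi1b, with at most 0.486 FPKM. Dclk1 and Pou2f3 overlapped in range, but Dclk1 was the higher of the pair in 6 of 6 libraries. Trpm5 and Alox5ap could not be ordered, since Alox5ap was higher in 3 of 6 libraries.

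**Figure D1:**
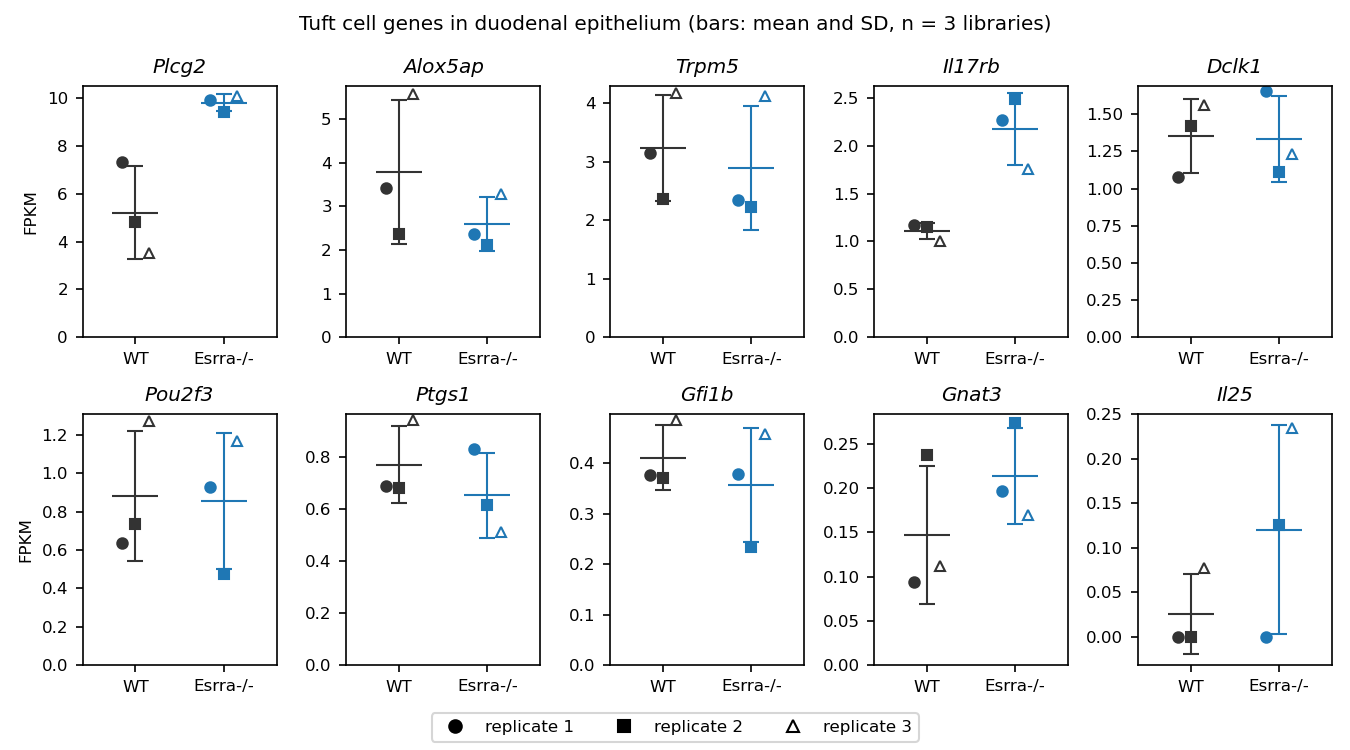
FPKM of the 10 tuft cell genes in each library, in the order of their mean level, with WT in black and Esrra-/- in blue; horizontal bars are the mean and error bars the SD of 3 libraries. Replicate 3 is drawn as open triangles. The Esrra-/- values of Plcg2 and Il17rb lie above all their WT values, and those of the other 8 genes overlap with WT.

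The promoters of the members were read from RefSeq (GRCm38.p6), as 250 bases before and 50 bases from the transcription start. Promoters of 7 of the 10 members were matched by symbol, 8 promoters in all, since Dclk1 has 2. Those not matched were Pou2f3, Il25 and Alox5ap. The promoters of the 2 members that were called higher are shown with that of Trpm5, a member whose groups overlapped, with each CG dinucleotide in capitals. The promoter of Plcg2 lies at chr8:117498025-117498324 on the plus strand, that of Il17rb at chr14:30008847-30009146 on the minus strand and that of Trpm5 at chr7:143094593-143094892 on the minus strand.
Plcg2: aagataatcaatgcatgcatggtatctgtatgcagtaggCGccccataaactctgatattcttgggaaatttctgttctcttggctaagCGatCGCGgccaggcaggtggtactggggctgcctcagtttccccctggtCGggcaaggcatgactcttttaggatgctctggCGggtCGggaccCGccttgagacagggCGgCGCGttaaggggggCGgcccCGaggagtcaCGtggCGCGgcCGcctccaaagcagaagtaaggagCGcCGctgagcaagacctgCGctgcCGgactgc
Il17rb: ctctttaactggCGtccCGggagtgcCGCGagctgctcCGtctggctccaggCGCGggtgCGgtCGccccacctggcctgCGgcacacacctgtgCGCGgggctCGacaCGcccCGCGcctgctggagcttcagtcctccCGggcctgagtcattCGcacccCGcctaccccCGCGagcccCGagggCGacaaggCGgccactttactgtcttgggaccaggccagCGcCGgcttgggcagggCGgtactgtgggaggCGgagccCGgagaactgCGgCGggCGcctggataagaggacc
Trpm5: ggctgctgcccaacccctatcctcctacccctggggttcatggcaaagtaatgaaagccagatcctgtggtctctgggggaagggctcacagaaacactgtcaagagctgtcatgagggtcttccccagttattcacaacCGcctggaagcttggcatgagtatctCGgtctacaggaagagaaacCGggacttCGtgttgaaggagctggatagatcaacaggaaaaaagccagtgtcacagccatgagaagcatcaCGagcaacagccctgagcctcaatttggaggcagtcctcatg

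The promoter of Plcg2 holds 21 CG dinucleotides and that of Il17rb 32, against 5 in that of Trpm5 and a median of 7 over all 32851 promoters of this length. The other 5 member promoters hold 4 to 7. The share of G and C was 60.0% for Plcg2, 72.0% for Il17rb and 53.0% for Trpm5, where the median of all promoters was 52.7%. All 8 promoters were searched on both strands for TCAAGGTCA, the full motif of the estrogen-related receptors, for its core AAGGTCA, which lies within it, and for the octamer ATGCAAAT, the motif of POU2F-class factors. None of the 3 was found in any of the 8. These letters occur in 0.423%, 4.72% and 1.74% of all promoters, in the same order. A missing match says only that these letters are not in these windows.

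Il17rb encodes the subunit of the IL-25 receptor that binds the cytokine, and lies at chr14:30809327-30822082 of mm9 on the minus strand. Its level was 1.17, 1.15 and 1.01 FPKM in the WT libraries and 2.27, 2.49 and 1.76 FPKM in the Esrra-/- libraries. All Esrra-/- values lay above all WT values, and the WT libraries were close to each other. The group means of Il17rb were 1.11 ± 0.0859 and 2.17 ± 0.378 FPKM (SD, n = 3). The log2 fold change was 0.90 with a 95% interval of 0.36 to 1.44 (limma p = 0.00549, Benjamini-Hochberg adjusted p = 0.295, two-sided exact permutation p = 0.1). A p of 0.1 is the smallest that an exact test of 3 against 3 libraries allows.

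Plcg2 encodes phospholipase C gamma 2, a signalling enzyme of tuft cells that is also used by B cells, myeloid cells and mast cells. The gene lies at chr8:120022191-120159040 of mm9 on the plus strand. WT libraries held 7.34, 4.80 and 3.51 FPKM of Plcg2 and Esrra-/- libraries 9.93, 9.43 and 10.1 FPKM. The groups did not overlap, and the spread lay mostly in WT, where replicate 1 was the highest and replicate 3 the lowest. The group means of Plcg2 were 5.22 ± 1.95 and 9.83 ± 0.365 FPKM (SD, n = 3). The log2 fold change was 0.96 with a 95% interval of 0.38 to 1.55 (limma p = 0.00554, Benjamini-Hochberg adjusted p = 0.295, exact permutation p = 0.1).

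Among the 5 tested members, 2 were called higher (Plcg2 and Il17rb), against 1.35% of all genes tested, and 0 were called lower, against 3.28%. The list was chosen with earlier results of these data known. The shares of all genes are therefore given for scale and do not test the list. Without the filter on low values all 10 members were tested, and Plcg2 and Il17rb were again the 2 called. At an adjusted p under 0.05, limma called 0 of the 5 members, beside 0.0378% of all genes tested, and 2 of the 5 had an unadjusted p under 0.05, beside 10.8%. Groups did not overlap, with Esrra-/- above WT, for 2 of the 5, where 8.45% of all genes tested behaved so, and 0 of the 5 lay wholly below WT, where 9.14% of all genes did. The median log2 fold change of the 5 was −0.03, beside 0.03 over all genes tested. Neither call was lost when any 1 library was left out, under which the log2 fold change of Plcg2 ranged from 0.72 to 1.24 and that of Il17rb from 0.79 to 1.04. RNA of the whole epithelium was measured, so a change in the number of cells and a change in RNA per cell cannot be told apart.

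Plcg2 is also a gene of leukocytes. Of 4 B cell genes, all had a mean FPKM of 1 or less, with a summed level of 1.32 to 4.08 FPKM in WT and 0.826 to 1.54 FPKM in Esrra-/-. Of 7 myeloid genes 0 were called in either direction, and their sum was 29.3 to 36.3 FPKM in WT and 25.0 to 46.7 FPKM in Esrra-/-. By log2 fold change 3 of the 7 were positive and 4 negative, with a median of −0.08. Itgam, an integrin of myeloid cells singled out from the 7 after its values were seen, did not overlap between genotypes. It had 4.63, 4.74 and 3.24 FPKM in WT and 5.56, 6.04 and 5.18 FPKM in Esrra-/- (log2 fold change 0.42, limma adjusted p = 0.458). The part of B cells and myeloid cells in the level of Plcg2 was not tested.

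The genes by which tuft cells sense the lumen include Trpm5, the cation channel of taste transduction, and Gnat3, the taste G protein gustducin. Trpm5 had 3.15, 2.37 and 4.18 FPKM in WT and 2.35, 2.23 and 4.12 FPKM in Esrra-/-. The third library of each genotype was the highest, and the other 4 lay between 2.23 and 3.15 FPKM. The log2 fold change of Trpm5 was −0.17 (standard error 0.30, 95% interval −0.87 to 0.53, limma adjusted p = 0.859), an interval that reaches past the size of a call on the lower side but not on the higher. Trpm5 overlaps Tssc4 on the other strand, and since the library kit does not mark strand, reads from the overlap cannot be told apart. Gnat3 had 0.0934, 0.237 and 0.112 FPKM in WT and 0.197, 0.274 and 0.170 FPKM in Esrra-/-, with overlapping groups (exact permutation p = 0.300). Dclk1, a microtubule-associated kinase used as the common marker of tuft cells, had 1.08, 1.42 and 1.56 FPKM in WT and 1.66, 1.11 and 1.23 FPKM in Esrra-/-. Its log2 fold change was −0.03 (standard error 0.27, 95% interval −0.67 to 0.62, limma adjusted p = 0.980).

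The transcription factors of the list were POU2F3, required for tuft cells to form, and GFI1B, a zinc finger repressor found in tuft cells among epithelial cells. Pou2f3 had 0.638, 0.737 and 1.27 FPKM in WT and 0.930, 0.472 and 1.17 FPKM in Esrra-/-, means of 0.881 ± 0.339 and 0.858 ± 0.355 FPKM (SD, n = 3 each; exact permutation p = 1.00). Gfi1b had 0.377, 0.372 and 0.486 FPKM in WT and 0.379, 0.235 and 0.458 FPKM in Esrra-/- (exact permutation p = 0.600). Both genes had their highest value of each genotype in replicate 3.

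Alox5ap and Ptgs1 act in the synthesis of lipid mediators. Alox5ap encodes the protein that presents arachidonic acid to 5-lipoxygenase for leukotriene synthesis, and it is expressed by leukocytes too. It had 3.42, 2.36 and 5.58 FPKM in WT and 2.37, 2.12 and 3.29 FPKM in Esrra-/-. The groups overlapped, and WT replicate 3 was the highest of all. The log2 fold change was −0.47 (standard error 0.32, 95% interval −1.22 to 0.29, limma adjusted p = 0.629). Without WT replicate 2 it was −0.75 and passed the thresholds of a call (limma adjusted p = 0.689), the only fit run here in which a member was called lower. Without WT replicate 3 it was −0.15 (limma adjusted p = 0.817). Ptgs1, cyclooxygenase 1, had 0.690, 0.680 and 0.944 FPKM in WT and 0.831, 0.617 and 0.510 FPKM in Esrra-/- (exact permutation p = 0.400). Il25, the cytokine that tuft cells send to innate lymphoid cells, was listed at 0 in WT replicates 1 and 2 and in Esrra-/- replicate 1. It had 0.0774 FPKM in WT replicate 3 and 0.126 and 0.235 FPKM in Esrra-/- replicates 2 and 3, so it was at the lower edge of what these libraries show and no fold is given.

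The members did not vary as 1 block over the libraries. Within both genotypes replicate 3 had the highest value for 5 of the 10 members (Trpm5, Pou2f3, Gfi1b, Il25 and Alox5ap), where 20.1% of all genes with a value above 0 behaved so. The same held for 2 of the 5 tested members, beside 28.1% of all genes tested, and for 10 of 43 further tuft cell genes with a value above 0 (23.3%). On the log2 scale, replicate 3 exceeded the mean of the other replicates by 0.60 in WT and 0.82 in Esrra-/- for Trpm5 and by 0.80 and 0.73 for Pou2f3. For Plcg2 the same differences were −0.74 and 0.07, and for Il17rb −0.18 and −0.42. The closest pair of members over the 6 libraries was Trpm5 and Alox5ap, with a mean absolute difference of 0.158 between their centred log2 values, and the farthest was Il25 and Ptgs1, with 0.740. These replicate 3 libraries are those without Y-linked transcripts above a trace. They also had the highest summed level of villus enterocyte genes of their genotype, 60200 FPKM against 37500 and 35900 in WT and 61300 against 55200 and 45700 in Esrra-/-. Their summed level of Paneth cell genes was the lowest, 3430 FPKM against 4370 and 7700 in WT and 749 against 2430 and 3440 in Esrra-/-. The part of either in the levels of the tuft cell genes was not tested. With only the 4 libraries that hold Y-linked transcripts, the log2 fold change was 0.69 for Plcg2 and 0.98 for Il17rb, and both were still called.

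**Figure D2:**
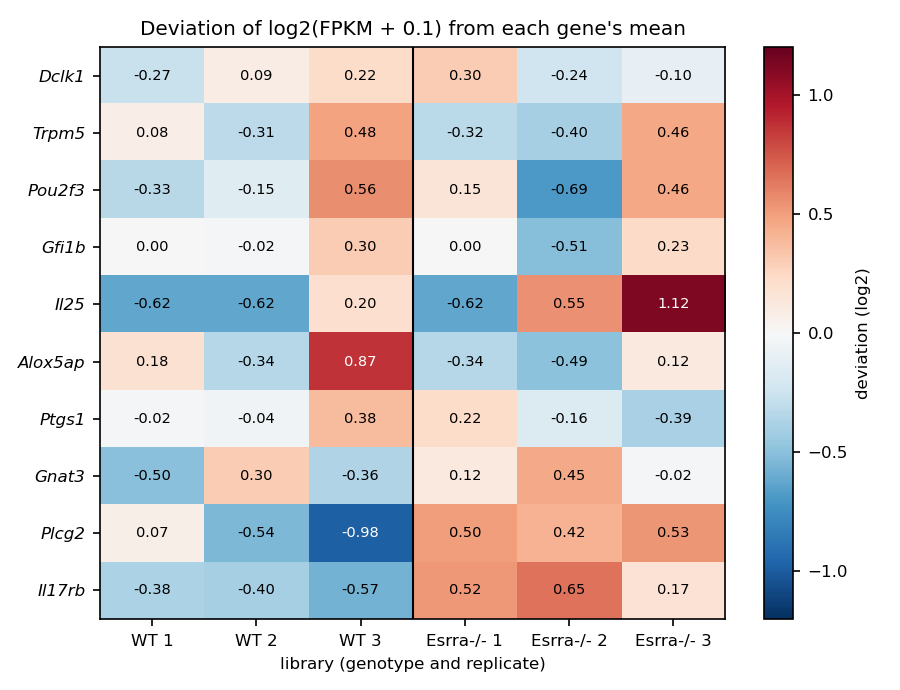
Deviation of log2(FPKM + 0.1) from each gene's mean over the 6 libraries, with genes in rows and libraries in columns. Plcg2 and Il17rb are positive in all 3 Esrra-/- libraries, while Trpm5, Pou2f3, Gfi1b and Alox5ap are positive in replicate 3 of both genotypes.

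By mean absolute difference of centred log2 values, the genes nearest to the median profile of the 5 tested members were Elmo2 (0.0417), Rab1 (0.0438), Phf17 (0.0477), Wipf3 (0.0581) and AI316807 (0.0587), each over 6 libraries. Since they were picked for this likeness, their small log2 fold changes, from −0.01 to 0.11, follow from the choice. Elmo2, for example, had 22.6, 17.4 and 24.9 FPKM in WT and 24.4, 18.1 and 23.2 FPKM in Esrra-/-.

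Beyond the members, 46 further genes known from tuft cells were listed in 6 groups, also with earlier results of these data known. Of these, 44 were in the table, 28 had a mean FPKM above 1, and 2 were called higher (Matk and Itpr2) and 1 lower (Pla2g4a), beside 1.35% and 3.28% of all genes tested. The median log2 fold change of the 28 was 0.11, with 16 positive and 12 negative, beside 0.03 over all genes tested.

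Matk, a kinase that restrains Src family kinases, had the largest log2 fold change of the tuft cell genes tested. It had 2.76, 1.65 and 3.08 FPKM in WT and 7.21, 6.71 and 4.01 FPKM in Esrra-/-, with no overlap between genotypes. The difference between genotypes was 1.23 on the log2 scale (standard error 0.30, limma p = 0.00439, adjusted p = 0.289, exact permutation p = 0.1). Itpr2, a receptor that releases calcium from the endoplasmic reticulum upon phospholipase C signalling, had 1.10, 1.13 and 1.53 FPKM in WT and 2.69, 1.91 and 2.37 FPKM in Esrra-/- (log2 fold change 0.84, standard error 0.24, limma p = 0.00883, adjusted p = 0.327, exact permutation p = 0.1). Its groups did not overlap, and it spans Gm17706 on the other strand and Gm15720 on its own. Pla2g4a, the cytosolic phospholipase A2 that frees arachidonic acid, fell from 2.06, 1.69 and 1.26 FPKM in WT to 0.877, 0.905 and 0.610 FPKM in Esrra-/- (log2 fold change −0.97, standard error 0.31, limma p = 0.0155, adjusted p = 0.365, exact permutation p = 0.1). Pla2g4a was the one gene of the lipid mediator group that was called, while the other 3 tested genes of that group were not. The calls of Itpr2 and Pla2g4a were lost with a pseudocount of 1, that of Pla2g4a also without WT replicate 1, and Pla2g4a was not tested when FPKM above 1 was required in all 6 libraries.

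In the other groups no gene was called with all libraries and the settings above. Under other settings Cd24a was called lower in 4 fits, Ascl2 in 2 and Sox9 in 1, and Il4ra was called higher in 1. Of the transcription factors, Ascl2 had a log2 fold change of −0.67 (limma adjusted p = 0.480), Sox9 −0.47 and Spib 0.15, and Ascl2 and Sox9 are also genes of stem and crypt cells. Of the cytokine receptor group, Il13ra1 had 47.3, 49.0 and 47.7 FPKM in WT and 60.1, 61.3 and 62.9 FPKM in Esrra-/-, with no overlap, but its log2 fold change of 0.36 was under the size set for a call. Il4ra had a log2 fold change of 0.33 and Il17ra one of 0.19. Of the surface and structure group, Cd24a, a surface glycoprotein that Paneth and crypt cells carry as well, had 96.5, 112 and 104 FPKM in WT and 74.6, 74.2 and 63.6 FPKM in Esrra-/-, and its log2 fold change of −0.56 (limma p = 0.00447, adjusted p = 0.289, exact permutation p = 0.1) was just short of the size for a call. Cd300lf had −0.26 and Siglec5 0.16.

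**Figure D3:**
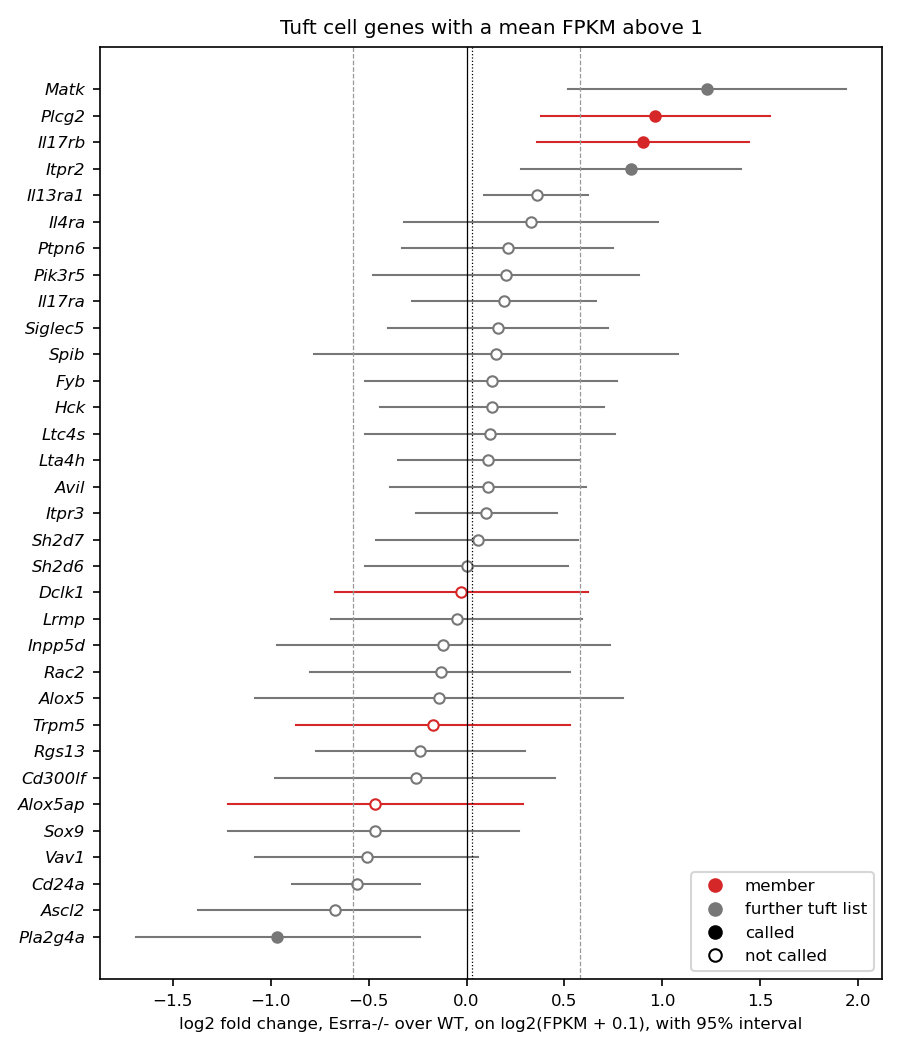
Log2 fold change, Esrra-/- over WT, with its 95% interval for the 5 tested members (red) and the 28 further tuft cell genes tested (grey); filled points were called, dashed lines mark 0.58 in size and the dotted line the median of all genes tested. Matk, Plcg2, Il17rb and Itpr2 lie above the upper line and Pla2g4a below the lower, and the other intervals either reach 0 or belong to Il13ra1 and Cd24a.

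The type 2 immune circuit that tuft cells start was barely measured in this epithelium. Of its 13 genes, Il4 and Il9 were listed at 0 in all 6 libraries and 2 had a mean FPKM above 1, neither of them called. Il33, an alarmin, had 15.9, 16.8 and 31.5 FPKM in WT and 18.9, 13.4 and 67.4 FPKM in Esrra-/-, and Areg, an epidermal growth factor family ligand, had 9.62, 4.03 and 9.70 FPKM in WT and 6.60, 5.11 and 17.7 FPKM in Esrra-/-. Replicate 3 was the highest of its genotype for both genes.

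Markers of the other cell types gave the following. None of the genes tested was called among 4 pan-leukocyte, 7 T cell, 7 myeloid, 6 goblet, 7 enteroendocrine, 7 villus enterocyte, 2 erythroid and 1 mesenchymal gene. Of 4 stem cell genes 1 was called lower (Smoc2), and of 4 Paneth cell genes 2 were (Lyz1 and Ang4), beside 3.28% of all genes tested. Neither Lyz1 nor Ang4 was called without the filter on low values. Of 3 mast cell genes tested 2 were called lower (Mcpt1 and Mcpt2). The summed level of the 6 mast cell genes was 8.77 to 39.5 FPKM in WT and 3.33 to 4.21 FPKM in Esrra-/-. Mcpt1 and Mcpt2 made up most of this sum in every library. Kit, the other gene tested, was not called (log2 fold change −0.53, limma adjusted p = 0.605), and both Kit and Cpa3 overlapped between genotypes. Mcpt2 passed the filter on mean FPKM through its WT values alone. Mast cells also use Alox5ap, Plcg2 and Ptgs1, and the part of mast cells in the levels of these genes was not tested. The sum over the 10 members was 14.1 to 18.7 FPKM in WT and 19.1 to 23.1 FPKM in Esrra-/-. Plcg2 was the largest term in 5 of 6 libraries, the exception being WT replicate 3. Without Plcg2 the sums overlapped, at 9.33 to 15.2 FPKM in WT and 9.67 to 12.9 FPKM in Esrra-/-.

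**Figure D4:**
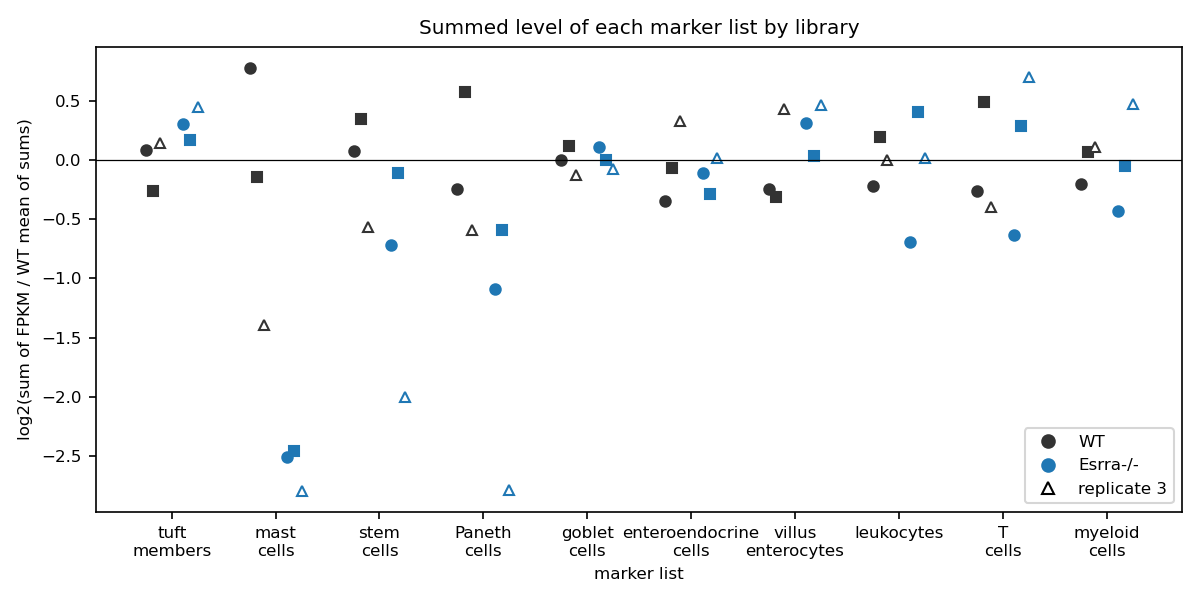
Summed FPKM of each marker list in each library as log2 of its ratio to the mean of the WT sums, with WT in black, Esrra-/- in blue and replicate 3 as open triangles. The mast cell list, whose sum is mostly Mcpt1 and Mcpt2, is lower in all Esrra-/- libraries. The Paneth and stem cell lists are lowest in Esrra-/- replicate 3, and of the lists drawn the goblet cell list varies least.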

How the data were processed

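RNA was sequenced from duodenal epithelium that had been released from the tissue with EDTA. Per the labels and the methods of the study, the authors checked paired-end reads with FastQC 0.11.3, quantified them with kallisto against mm9 and computed FPKM with DESeq2, versions 2.1.0 and 2.2.1 as the submitters' processing notes give them. The annotation is not given in the sources used here. The authors deposited FPKM values of 22611 genes in 6 libraries, and a table of their own comparison (mean count, log2 fold change, standard error, statistic, p and adjusted p), which was not used.

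Here log2(FPKM + 0.1) of the 10596 genes with a mean FPKM above 1 was fitted with limma 3.58.1 in R 4.3.3 (lmFit, eBayes with a trend), without covariates, and p-values were adjusted by the Benjamini-Hochberg method across all tested genes. The thresholds of a call are those of the study. Single genes were also compared by a two-sided exact permutation test of mean FPKM. The fit was tested on simulated data. A count test was not run, since the values are FPKM. The members and lists were chosen with earlier results of these data known. Named genes were all members and the 5 genes nearest to the members' median profile. Of each further list every called gene was named, or else the 3 with the smallest p. Mcpt1, Mcpt2, Kit, Cpa3, Itgam, Nebl, Smoc2, Lyz1, Ang4, Il4 and Il9 were named after their values were seen. Gene positions are from GENCODE M1 on NCBIM37 (mm9) and promoters from RefSeq on GRCm38.p6. The marker lists cover leukocytes, T cells, B cells, myeloid cells, mast cells, erythroid cells with megakaryocytes, neurons with mesenchyme, stem, goblet, Paneth and enteroendocrine cells and villus enterocytes. The alternatives were a pseudocount of 1, 2 other filters, quantile normalization, median-ratio scaling, no trend, the replicate number as a block, Y-linked transcripts as a covariate or filter, an adjusted p and each library left out in turn.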

Additional observations from a re-analysis of the deposited data

How the results depend on the processing

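Plcg2 and Il17rb were called higher in all 15 refits, but 0 members were called at a limma adjusted p under 0.05, and under that threshold 0 of the further tuft cell genes were called either. With a pseudocount of 1 the log2 fold change of Il17rb was 0.58, close to the threshold, and 1 further tuft cell gene was called (Matk) in place of 3. With each library left out, 0 to 1 members were called lower, 2 were called higher throughout and 3 to 6 further tuft cell genes were called. The single lower member was Alox5ap without WT replicate 2, and the 6 were found without Esrra-/- replicate 2 (Itpr2, Matk, Pla2g4a, Cd24a, Ascl2 and Sox9). Cd24a was also called lower under quantile normalization, without WT replicate 1 and without Esrra-/- replicate 1, Ascl2 without a trend, and Il4ra higher without WT replicate 1. Nebl was called lower without a filter. The median log2 fold change of the tested members ran from −0.17 to 0.12.

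The direction of Dclk1 turned, to 0.06 under quantile normalization, to 0.12 with only the libraries that hold Y-linked transcripts, and to 0.01, 0.08, 0.09 and 0.02 without WT replicate 2, WT replicate 3, Esrra-/- replicate 2 and Esrra-/- replicate 3. With each library left out, Dclk1 ran from −0.18 to 0.09 and Trpm5 from −0.45 to 0.02, the latter without WT replicate 3. The cause was not tested. With all libraries, both were smaller in size than their standard errors.

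Whether the replicate numbers pair the mice is not given in the sources used here, and correlations of expression cannot show it. The correlations across genes of the deviations from the group means were 0.01, 0.26 and 0.38 for replicates 1, 2 and 3. WT replicates 2 and 3 were each closest to the Esrra-/- library of the same number, while WT replicate 1 was closer to Esrra-/- replicate 2 (0.18). With the replicate number as a block, 2 members were called higher, 0 lower and 3 further tuft cell genes were called, the same counts as without it. The p-values moved more. The limma p of Alox5ap went from 0.188 to 0.0353 with the block and to 0.0497 with Y-linked transcripts as a covariate. Its log2 fold change of −0.47 stayed under the size for a call. The limma adjusted p went from 0.295 to 0.119 for Plcg2 and to 0.114 for Il17rb with the block. Of all genes, 143 were called higher and 348 lower in the main fit, and 192 and 441 with the block. The totals were 277 and 528 of 17679 without a filter, 214 and 348 with only the libraries that hold Y-linked transcripts, 2 and 2 at an adjusted p under 0.05, 214 and 398 without WT replicate 3, and 208 and 537 without Esrra-/- replicate 2. Depth is not known, so the counting error of the 5 members with a mean of 1 FPKM or less cannot be given.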

Other observations

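The mast cell proteases, singled out after their values were seen, differed more than any tuft cell gene tested. Mcpt1, a protease of mucosal mast cells, had 26.4, 12.6 and 3.75 FPKM in WT and 1.94, 1.73 and 1.63 FPKM in Esrra-/-, a difference of −2.55 on the log2 scale (standard error 0.61, limma p = 0.00388, adjusted p = 0.289, exact permutation p = 0.1). Mcpt2, also a protease of mucosal mast cells, had 10.9, 5.40 and 3.39 FPKM in WT and 0.624, 0.898 and 0.716 FPKM in Esrra-/-, a difference of −2.83 on the log2 scale (standard error 0.41, limma p = 0.000175, adjusted p = 0.0918, exact permutation p = 0.1). The groups did not overlap for either gene. Mcpt2 passed the filter on mean FPKM through its WT values alone, since each Esrra-/- value was under 1 FPKM. The WT values ranged widely, with replicate 1 the highest and replicate 3 the lowest for both.

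Of the further tuft cell genes, Kctd12 and Nrep were not found by symbol and were not analysed here.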
